A study of Mus musculus with 2 samples.

Results

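The antioxidant and NRF2 target genes are a set of 40 mouse genes for the enzymes that remove superoxide and peroxides, the glutathione and thioredoxin systems, and the transcription factor NRF2 with its inhibitor KEAP1. They were chosen by symbol, and all 40 were found among the 24091 genes listed. RNA sequencing had been done on 2 libraries of polyadenylated RNA from C57BL/6 mice, 1 library per condition. The irradiated mice received pelvic radiation, for which the labels give 7.5 Gy and 5 days without stating whether the dose was daily or total, and the control mice were sham irradiated. Both titles also name PBS, whose role the labels do not explain. Gonadal fat was taken 2 months later and dissociated with collagenase, and the floating cells were kept in culture for 3 days. How many mice each library represents is not stated in the labels. Since each condition was sequenced once, there was no test between conditions, and radiation and any other difference between the 2 cultures cannot be told apart.

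Superoxide dismutases turn superoxide into hydrogen peroxide, which catalase, the glutathione peroxidases, and the peroxiredoxins then remove. Glutathione and thioredoxin supply the electrons for the glutathione peroxidases and the peroxiredoxins, and NADPH renews glutathione and thioredoxin. Under resting conditions KEAP1 marks NRF2 for degradation, and oxidants or electrophiles stop this, so that NRF2 enters the nucleus and binds antioxidant response elements (AREs) at genes such as Nqo1, Hmox1, Gclc, and Txnrd1. In fat, these systems handle the peroxides formed by mitochondria and by the oxidation of stored lipid.

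Levels are given as FPKM (fragments per kilobase of gene and per 1000000 fragments), which allows genes of different length to be compared. A difference is the log2(FPKM + 0.1) value of the irradiated library minus that of the sham library, and the interval beside it is an exact 95% binomial interval of the ratio of fragments, widened by 0.01 for rounding. This interval covers counting and rounding only. It does not cover variation between mice or cultures. A gene is called higher or lower when it differs by at least 0.5, about 1.41-fold, among the 11253 genes whose FPKM reached 1 in either library. The depth recovered from the values was 30600000 fragments in the sham library and 35000000 in the irradiated library.

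The label of primary adipocytes was checked against marker genes. Of 11 adipocyte markers, 4 reached an FPKM of 1 in each library. Adipoq stood at 0.133 and 0.232 and Lep was at 0 fragments in the sham library, whereas Fabp4 was at 96.9 in both. All 10 macrophage markers reached 1 in both libraries, and fibroblast and progenitor markers did so in 9 of 10 and 10 of 10 cases. The summed FPKM was 4458 in the sham and 3559 in the irradiated library for fibroblast and progenitor markers, 611 and 651 for macrophage markers, 33.5 and 46.7 for mesothelial markers, and 40.2 and 43.8 for endothelial markers. No lymphocyte or epididymal marker reached 1, and all 5 epididymal markers were at 0 in the irradiated library. The median difference was -0.20 for the 10 fibroblast and progenitor markers, 0.41 for the 10 macrophage markers, and 1.16 for the 7 mesothelial markers. Of the mesothelial markers, 3 reached an FPKM of 1 in the sham library and 7 in the irradiated library. Values were higher for 6 of them, but the most abundant, Wt1, was lower at 20.4 and 18.7. Of the macrophage markers 8 were higher and 2 lower, among the latter the most abundant, Lyz2, at 443 and 410. Fewer cells of a type and less RNA per cell cannot be told apart in such libraries, and the part of these shifts in the differences below was not tested.

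As a set, the 40 genes stood almost level between the libraries. All of them passed an FPKM of 1, 19 had a higher value in the irradiated library, and 21 had a lower value. Their median difference was -0.02, beside 0.02 for all 11253 genes. None was called higher, against 4.31% of all genes, and 2 were called lower, Sod2 and Gstt1, against 1.44% of all genes. Calls were rarer among the 8053 genes whose sham FPKM lay within the range of the 40, with 163 higher and 62 lower. At a difference of at least 1 the counts for the 40 genes were 0 higher and 0 lower, against 0.791% and 0.373% of all genes. Just short of the threshold lay Nqo1 at 0.48 and Gsta4 at 0.44, and the next lower gene after the called pair was Sod3 at -0.39. Within 0.2 of no difference were 26 of the 40 genes and 74.4% of all genes.

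**Figure D1:**
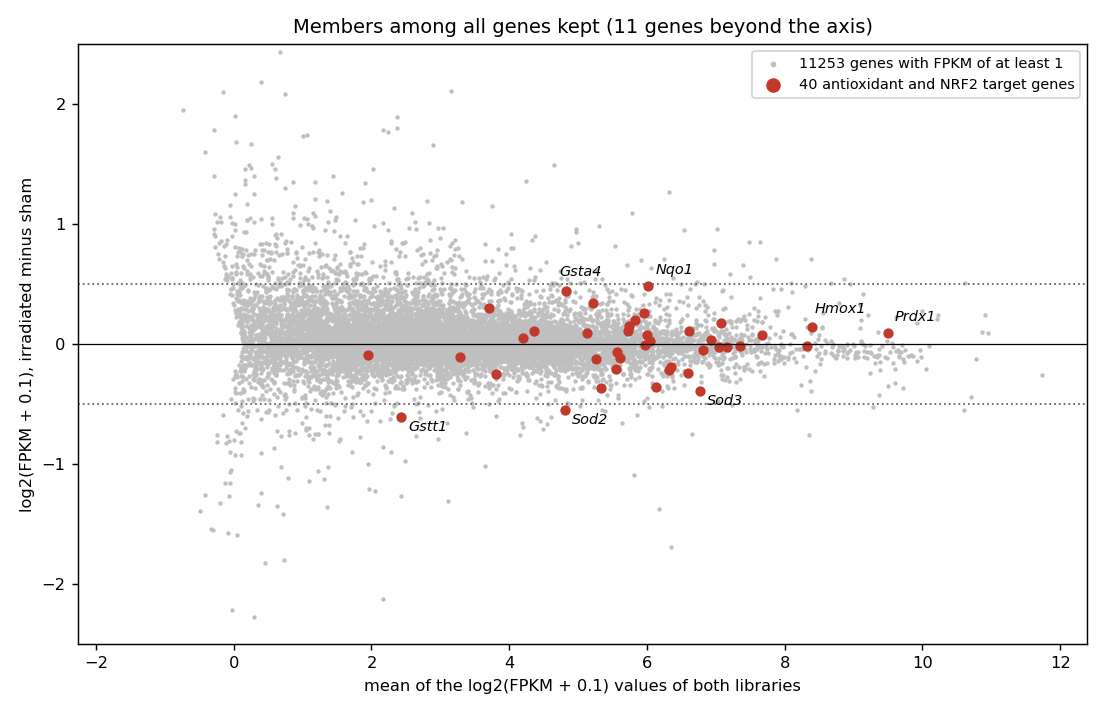
Difference between the libraries (vertical axis, log2(FPKM + 0.1), irradiated minus sham) against the mean log2 value of both libraries for 11253 genes (grey) and the 40 antioxidant and NRF2 target genes (red). The 40 genes spread from -0.61 (Gstt1) to 0.48 (Nqo1), and 2 of them lie beyond the dotted lines at 0.5 and -0.5.

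These genes were strongly expressed. In the sham library 38 of the 40 lay above the median FPKM of the genes kept and 26 lay at or above percentile 90, and in the irradiated library 24 did. In both libraries, 10 genes reached an FPKM of 100. Prdx1 was the most abundant at 699 in the sham and 744 in the irradiated library. Txn1 and Hmox1 came next in both libraries, in opposite order, and Txnrd2 was the least abundant in both at 3.90 and 3.66. Together the 40 genes took 0.735% of the fragments on listed genes in the sham library and 0.74% in the irradiated library. Their summed FPKM was 3822 and 3868. At this depth a small difference of a single gene can exceed counting error, and the interval lay above 0 for 15 of the 40 genes, below 0 for 12, and included 0 for 13. Among all genes kept, 22.2% had an interval above 0 and 15.9% an interval below 0. Among the 5041 genes with a sham FPKM of at least 10 the shares were 21.9% and 24.3%, and of the 38 such genes in the set 15 and 11 had such intervals.

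**Figure D2:**
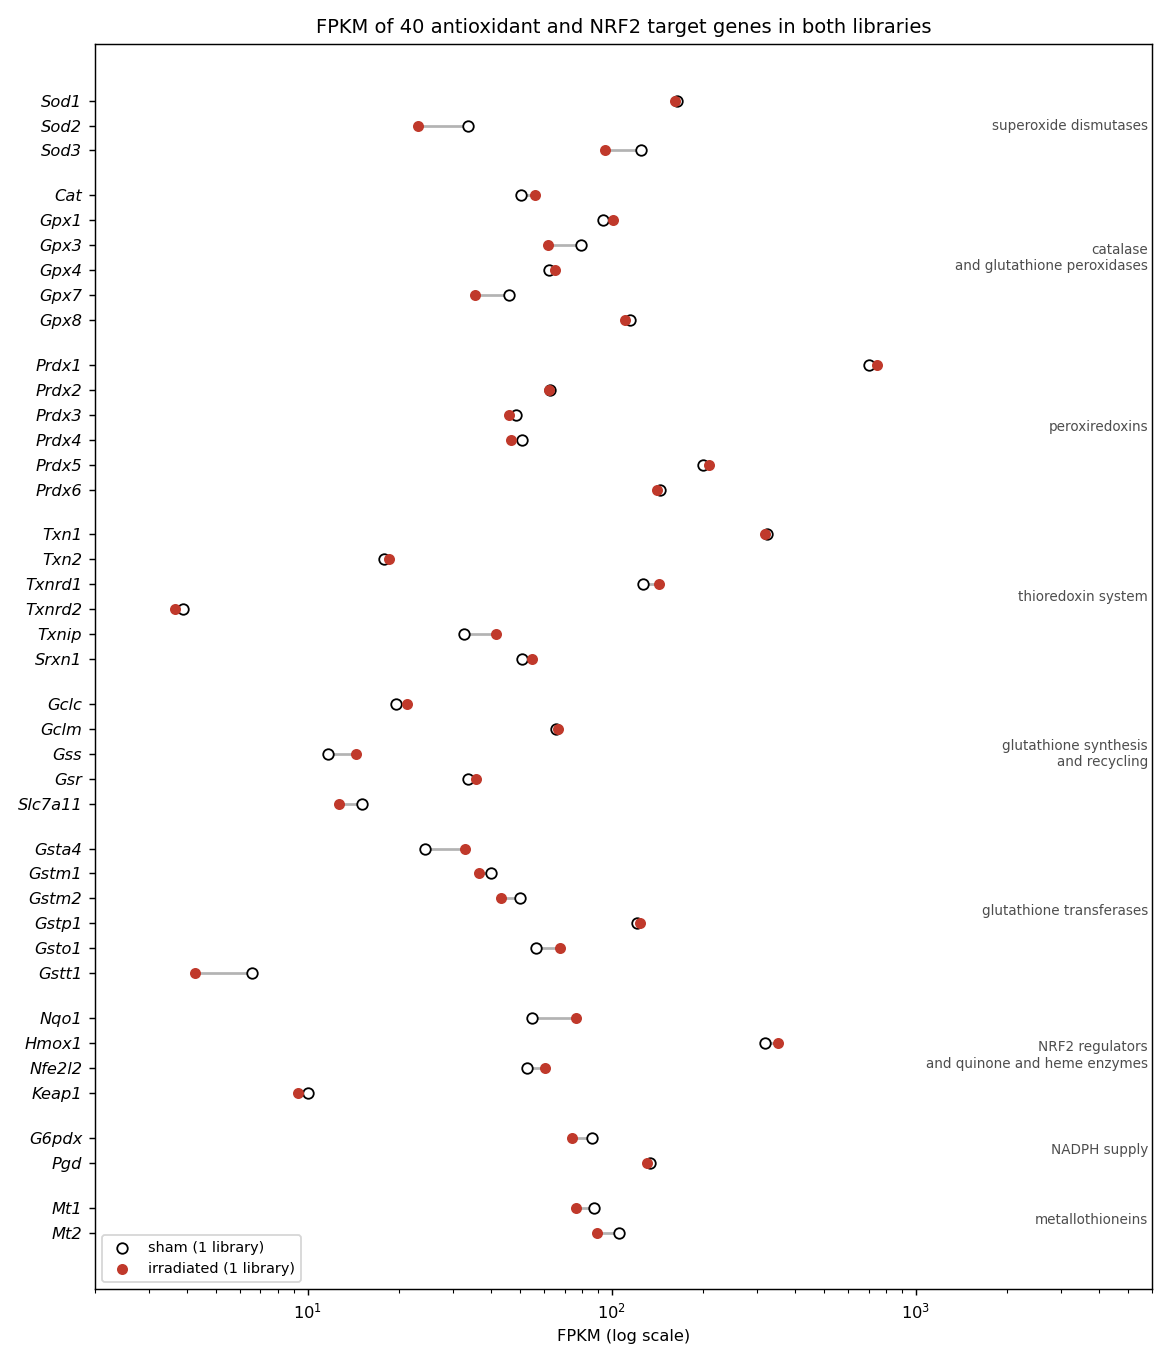
FPKM (log scale) of each of the 40 genes in the sham library (open circles) and the irradiated library (filled circles), grouped by enzyme class. The span from Txnrd2 at 3.90 to Prdx1 at 699 in the sham library is far wider than the gap between the libraries for any single gene.

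The NRF2 switch itself was read first. Nfe2l2, which encodes NRF2, stood at an FPKM of 52.6 in the sham library and 60.4 in the irradiated library, a difference of 0.20 (interval 0.14 to 0.26). Keap1, its inhibitor, stood at 10.03 and 9.28, a difference of -0.11 whose interval of -0.23 to 0.01 included 0. The ratio of Keap1 to Nfe2l2 was thus 0.191 in the sham and 0.154 in the irradiated library. NRF2 is regulated mainly through the stability of its protein, which RNA does not show.

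Among its classical targets, Nqo1 had the largest positive difference of all 40 genes. Nqo1 encodes the quinone reductase that is the usual marker of NRF2 activity, and on chromosome 8 from 107388225 to 107403205 (mm10) it rested on 2593 and 4140 fragments. Its FPKM was 54.8 in the sham and 76.5 in the irradiated library, a difference of 0.48 (interval 0.40 to 0.56) at percentile 95.4 of all genes kept. Hmox1, the heme oxygenase that breaks heme down to biliverdin, iron, and carbon monoxide, was at 319 and 352, a difference of 0.14 (interval 0.10 to 0.18). Over the class of Nfe2l2, Keap1, Nqo1, and Hmox1, the median difference was 0.17, with 3 values higher and 1, that of the inhibitor Keap1, lower.

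A list of 12 well-known NRF2 targets within the set, Nqo1, Hmox1, Gclc, Gclm, Slc7a11, Srxn1, Txnrd1, Prdx1, G6pdx, Pgd, Gsr, and Gstm1, had 8 higher and 4 lower values. The median difference was 0.09, with 7 intervals above 0 and 3 below 0. Of all genes kept, 53.5% had a higher and 44.0% a lower value. All 12 targets had a sham FPKM of at least 10. Among all genes at that level, 21.9% had an interval above 0 and 24.3% an interval below 0. The 28 other genes of the set had 11 higher and 17 lower values and a median of -0.02. The targets lay on both sides of 0, and Slc7a11 at -0.25 and G6pdx at -0.22 stood opposite to Nqo1 at 0.48 and Txnrd1 at 0.17.

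Promoter sequences were read to see which of the genes carry an ARE close to their start. RefSeq windows of assembly GRCm38.p6 were matched for 34 of the 40 genes, leaving out Sod3, Prdx6, Gclc, Gsr, Hmox1, and Gsta4. The 250 bases before the start were searched on both strands for the ARE core TGACNNNGC, where N is any base. It was present in 7 of the 41 windows of these genes and in 10.2% of all 32851 windows. The matches are given 5′ to 3′ on the strand of the gene, with the core in capitals, since they set genes of opposite difference side by side.
Nfe2l2: tcagcccaccTGACTCCGCcatgccccgga
Txnrd1: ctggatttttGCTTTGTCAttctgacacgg
Prdx1: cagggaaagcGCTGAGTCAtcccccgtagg
Gclm: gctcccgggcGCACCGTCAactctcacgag
Sod1: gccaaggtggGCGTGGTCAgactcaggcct
G6pdx: aggcgggtcaGCTCAGTCAaagcacacgcc
Mt2: aaagggggtgTGACTCAGCgcggggggtgg
The core reads along the gene in Nfe2l2 and Mt2 and on the other strand in the rest, and the coordinates that follow are those of the 30 bases printed. In Nfe2l2 it begins 240 bases before the start, at chr2:75704884-75704913 (minus strand), in Prdx1 133 bases before it, at chr4:116685456-116685485 (plus strand), and in Mt2 79 bases before it, at chr8:94172529-94172558 (plus strand). The Txnrd1 match, at chr10:82859104-82859133 (plus strand), belongs to 1 of several start sites listed for that gene. That start is not the one in the deposited table, where Txnrd1 runs from 82833951 to 82897724, so the site lies inside the gene as listed. The sites of Gclm (chr3:122245413-122245442, plus strand), Sod1 (chr16:90220696-90220725, plus strand), and G6pdx (chrX:74428918-74428947, minus strand) begin 134, 56, and 57 bases before a RefSeq start. For Sod1 and G6pdx, too, that start is not the one in the deposited table, and the G6pdx site also lies inside the gene as listed there. The differences of these 7 genes, in the order shown, were 0.20, 0.17, 0.09, 0.02, -0.02, -0.22, and -0.24, so the genes with a match lay on both sides of 0. Nqo1 had no match in its window, which says only that these letters are not in those 250 bases.

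Superoxide dismutases had the lowest median difference of the 9 enzyme classes, at -0.39. Sod2, the manganese enzyme of the mitochondrial matrix, was at an FPKM of 33.7 in the sham and 23.0 in the irradiated library. On chromosome 17 from 13007839 to 13040063, it rested on 7528 and 5876 fragments, and its difference was -0.55 (interval -0.61 to -0.49), at percentile 1.19 of all genes kept. Sod3, the extracellular enzyme bound to matrix and vessel walls, was at 124 and 94.9, a difference of -0.39 (interval -0.45 to -0.33). Sod1, the copper and zinc enzyme of the cytosol, was at 164 and 162, a difference of -0.02 with an interval from -0.10 to 0.06. The lower values were in the mitochondrial and extracellular forms, and the FPKM ratio of Sod2 to Sod1 was 0.205 in the sham and 0.142 in the irradiated library.

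Peroxide removal by catalase and the glutathione peroxidases was split by gene. Catalase (Cat), the peroxisomal enzyme, was at an FPKM of 50.5 and 56.0, a difference of 0.15 (interval 0.08 to 0.22). Gpx1, the main cytosolic glutathione peroxidase, was at 93.6 and 101, a difference of 0.11 (interval 0.03 to 0.19). Gpx4, which reduces lipid peroxides inside membranes and guards against ferroptosis, was at 62.1 and 65.2, and its interval of -0.01 to 0.15 included 0. In the other direction, Gpx3, the secreted plasma form, was at 79.2 and 61.7, a difference of -0.36 (interval -0.44 to -0.28). Gpx7, an enzyme of the endoplasmic reticulum that aids protein folding, was at 45.8 and 35.4, a difference of -0.37 (interval -0.48 to -0.26). Gpx8, a membrane protein of the same compartment, was at 114 and 111 with an interval that included 0. The class median of 0.01 thus averages over 3 higher and 3 lower genes, and it turned to -0.01 when all differences were centred on the median gene and to -0.004 when the 100 most abundant genes were left out of the scaling.

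The peroxiredoxins, thiol enzymes that clear most of the peroxide in a cell, varied least among the classes with more than a pair of genes, over a range of 0.21. Prdx1 had a difference of 0.09 (interval 0.06 to 0.12) on 30172 and 36749 fragments, the most of the 40 genes. Prdx5, found in mitochondria, peroxisomes, and cytosol, was at 199 and 209, a difference of 0.07. Prdx4, the form of the endoplasmic reticulum, was at 50.8 and 46.7, a difference of -0.12 (interval -0.21 to -0.03). Prdx2, Prdx3, and Prdx6 had differences of -0.01, -0.07, and -0.03, and each interval included 0.

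In the thioredoxin system, Txnip had the largest difference. Txnip encodes a protein that binds and blocks thioredoxin and limits glucose uptake. It was at an FPKM of 32.8 in the sham and 41.5 in the irradiated library, a difference of 0.34 (interval 0.26 to 0.42). Txnrd1, the cytosolic reductase that renews thioredoxin, was at 127 and 143, a difference of 0.17 (interval 0.13 to 0.21). Srxn1, which repairs overoxidized peroxiredoxins, was at 50.8 and 54.8, a difference of 0.11 (interval 0.04 to 0.18). Thioredoxin itself (Txn1) was at 324 and 319, so the ratio of Txnip to Txn1 was 0.101 in the sham and 0.13 in the irradiated library. The mitochondrial pair showed no difference detectable at this depth, Txn2 at 17.9 and 18.5 and Txnrd2 at 3.90 and 3.66 on 284 and 305 fragments.

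Glutathione synthesis and recycling had 4 of 5 genes with higher values. Gss, glutathione synthetase, which adds the last amino acid, was at an FPKM of 11.7 in the sham and 14.4 in the irradiated library, a difference of 0.30 (interval 0.15 to 0.46). It overlaps Acss2 on the opposite strand, at 1.03 and 1.16, and the sources used here do not give the strand setting of the counting. Gclc, the catalytic subunit of the rate-limiting glutamate-cysteine ligase, was at 19.6 and 21.2, a difference of 0.11 (interval 0.02 to 0.21). Its modifier subunit Gclm was at 65.7 and 66.6, a difference of 0.02, so the ratio of Gclm to Gclc was 3.35 and 3.15. Gsr, which reduces oxidized glutathione, was at 33.7 and 35.9, a difference of 0.09 (interval 0.01 to 0.17). Slc7a11, the cystine transporter that brings in the scarce building block, went the other way, at 15.1 and 12.7, a difference of -0.25 (interval -0.32 to -0.19).

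**Figure D3:**
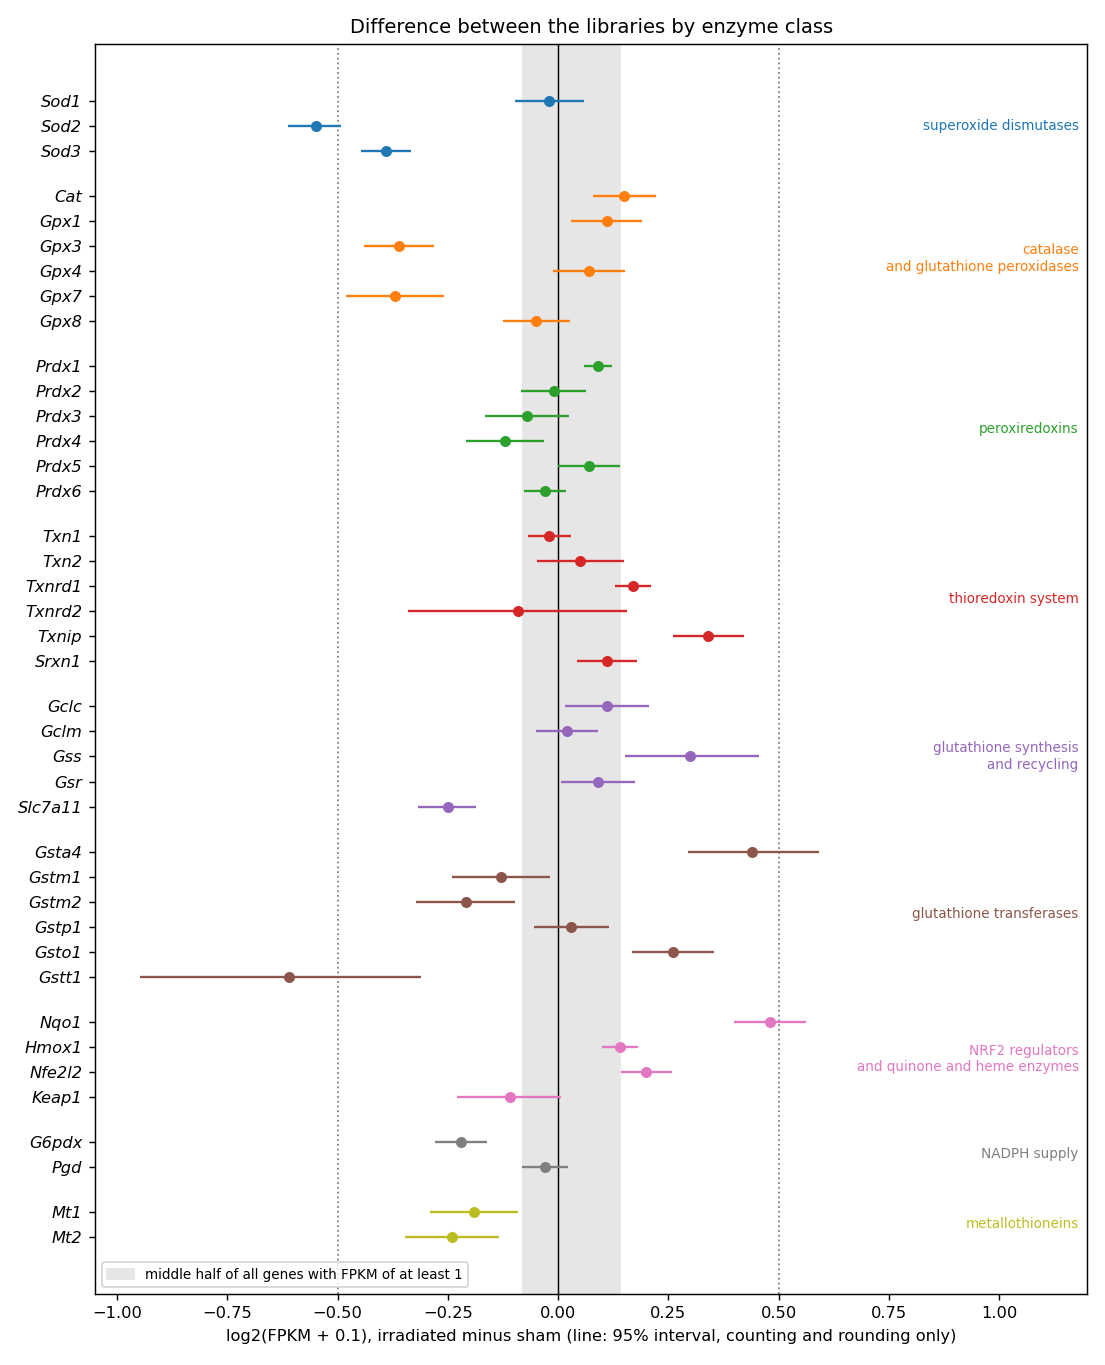
Difference of each of the 40 genes on the log2(FPKM + 0.1) scale, irradiated minus sham, with its 95% interval for counting and rounding, coloured by enzyme class. The grey band runs from the lower to the upper quartile of all 11253 genes (-0.08 to 0.14), the dotted lines mark 0.5 and -0.5, and Sod2 and Gstt1 lie beyond the lower line.

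Glutathione transferases, which attach glutathione to electrophiles, differed among themselves over a range of 1.05, the widest of any class. Gsta4 encodes the form that removes 4-hydroxynonenal, an aldehyde from peroxidized lipid, and lies on chromosome 9 from 78191966 to 78209349. It was at an FPKM of 24.3 in the sham and 33.0 in the irradiated library, a difference of 0.44 (interval 0.29 to 0.59). Gsto1, an omega-class enzyme that also reduces dehydroascorbate, was at 56.4 and 67.5, a difference of 0.26 (interval 0.17 to 0.35). Gstt1, a theta-class enzyme on chromosome 10 from 75783813 to 75798584, was at 6.58 and 4.28 on 208 and 154 fragments. Its difference of -0.61 was the lowest of the 40 genes, and its interval was the widest, from -0.95 to -0.31.

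The mu-class genes Gstm1 and Gstm2 lie next to each other on chromosome 3 and both had lower values, Gstm1 at 40.1 and 36.7 with a difference of -0.13 (interval -0.24 to -0.02) and Gstm2 at 50.1 and 43.3 with a difference of -0.21 (interval -0.32 to -0.10). Gstp1, the pi-class enzyme, was at 121 and 124, and its interval included 0. These genes have close relatives, among them Gstm5 at 26.8 and 23.5 and Gstp2 at 0.175 and 0.574, and the labels do not say how the counting split shared fragments. The same limit holds for Gstt1, whose relatives Gstt3 and Gstt2 were at 3.46 and 3.04 and at 0.801 and 0.987.

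NADPH for these reactions comes largely from the first steps of the pentose phosphate pathway. G6pdx, the rate-limiting glucose-6-phosphate dehydrogenase, was at an FPKM of 86.1 in the sham and 73.9 in the irradiated library, a difference of -0.22 (interval -0.28 to -0.16). Ikbkg, which overlaps it on the opposite strand, was at 5.33 and 6.40. Pgd, the next dehydrogenase of the pathway, was at 133 and 131, a difference of -0.03 with an interval that included 0.

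Metallothioneins are small cysteine-rich proteins that bind zinc and copper and scavenge radicals. Both genes had lower values. Mt1 was at an FPKM of 87.3 in the sham and 76.5 in the irradiated library, a difference of -0.19 (interval -0.29 to -0.09). Mt2 was at 105 and 89.2, a difference of -0.24 (interval -0.35 to -0.13). The ratio of Mt2 to Mt1 was 1.21 and 1.16. They are neighbours on chromosome 8, Mt2 from 94172618 to 94173567 and Mt1 from 94179089 to 94180327, and zinc controls them through MTF1, which binds metal response elements (MREs). The 250 bases before each start (GRCm38.p6, plus strand) are shown because both genes had lower values, with matches to TGCACNC or TGCGCNC on either strand in capitals.
Mt1, chr8:94178839-94179088: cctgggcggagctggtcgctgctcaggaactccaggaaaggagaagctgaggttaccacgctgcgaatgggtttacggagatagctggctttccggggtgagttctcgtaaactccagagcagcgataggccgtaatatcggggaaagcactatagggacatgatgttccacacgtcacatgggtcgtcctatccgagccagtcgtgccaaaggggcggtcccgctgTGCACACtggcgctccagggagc
Mt2, chr8:94172368-94172617: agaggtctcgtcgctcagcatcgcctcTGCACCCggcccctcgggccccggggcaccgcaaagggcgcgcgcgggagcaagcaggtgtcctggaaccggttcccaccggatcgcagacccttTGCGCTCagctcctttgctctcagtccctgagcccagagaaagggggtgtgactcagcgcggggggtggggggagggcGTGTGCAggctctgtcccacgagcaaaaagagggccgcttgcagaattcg
In these 250 bases Mt1 held 1 match and Mt2 held 3, and bases outside them, including those past the listed start, were not searched. Such a match was found in 13 of the 41 windows of the set and in 21.4% of all windows. In Gclm 1 of the MRE matches overlaps the ARE core.

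The same values were also sorted by where the product acts. Catalase, listed alone for the peroxisome, had a difference of 0.15 (interval 0.08 to 0.22). The 2 secreted enzymes, Sod3 and Gpx3, had differences of -0.39 and -0.36, and their summed FPKM was 204 in the sham and 157 in the irradiated library. The 3 genes of the endoplasmic reticulum, Gpx7, Gpx8, and Prdx4, were all lower, with a median of -0.12 and 2 intervals below 0. Of the 4 genes whose product is mainly mitochondrial, Sod2, Prdx3, Txn2, and Txnrd2, Sod2 had an interval below 0 and the other intervals included 0, while Prdx5, whose product is only in part mitochondrial, had a difference of 0.07 with an interval above 0. The 5 selenoproteins, Gpx1, Gpx3, Gpx4, Txnrd1, and Txnrd2, which carry selenocysteine at their active site, had a median of 0.07 with values from -0.36 to 0.17. Across all genes kept, 53.5% had a higher value and 44.0% a lower value in the irradiated library. These groups hold few genes, and the fibroblast and progenitor markers, with a median of -0.20, had 4 higher and 6 lower values.

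A wider list of 126 other redox genes, 125 of which were listed, gave context for the 40. Of the 107 whose FPKM reached 1, 69 had a higher and 36 a lower value, beside 53.5% and 44.0% of all genes, and the median difference was 0.09. Of them, 6 were called higher and 0 lower, beside 4.31% and 1.44% of all genes. Their intervals lay above 0 for 42 and below 0 for 15, beside 22.2% and 15.9% of all genes. Mgst2, among the 6, was at an FPKM of 0.712 in the sham and 1.19 in the irradiated library. Nox4, among the 42, was at 0.846 and 1.23. Both genes thus passed the filter only through the library in which they were higher. No tool for replicated data was run, so these are counts of differences and not of tests.

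Of the wider list, Trp53inp1 had the largest difference. This p53-induced gene with a role in limiting oxidant stress was at an FPKM of 4.40 in the sham and 8.65 in the irradiated library, a difference of 0.96 (interval 0.85 to 1.10). Ephx1, the microsomal epoxide hydrolase, was at 22.4 and 39.6, a difference of 0.82 (interval 0.71 to 0.93). Trim16, a ubiquitin ligase, was at 2.35 and 3.61, a difference of 0.60 (interval 0.42 to 0.83), and Maff, a small MAF protein of the family that pairs with NRF2 on AREs, was at 10.4 and 15.5, a difference of 0.57 (interval 0.44 to 0.71). Ncf4, a subunit of the phagocyte NADPH oxidase, was at 3.17 and 4.56, a difference of 0.51 (interval 0.21 to 0.85), beside a macrophage marker median of 0.41 whose part was not tested. The remaining call, Mgst2 at 0.67, rested on 13 and 25 fragments and its interval included 0.

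By group, the iron and heme genes were the most uniform, with 7 of 7 values higher, a median of 0.12, and 5 intervals above 0. Among them the ferritin chains, named after their values were seen, were at 1795 and 1924 for Fth1 and 1097 and 1269 for Ftl1. Quinone, carbonyl, and aldehyde enzymes had 13 higher and 2 lower values among 16, with a median of 0.11 and 8 intervals above 0 and 0 below. The oxidant producers had 7 of 9 higher and a median of 0.26. The lower values were those of Cybb at -0.05 and Rac2 at -0.08, also named after their values were seen. The macrophage markers had a median of 0.41, and their part in this group was not tested. The further pentose phosphate and NADPH genes had 6 of 7 lower and a median of -0.09, the exception being Taldo1 at 0.36, also named after its value was seen. The further glutathione enzymes had 7 higher and 11 lower values and a median of -0.03. Of all genes kept, 53.5% had a higher and 44.0% a lower value, and 22.2% had an interval above 0 and 15.9% an interval below 0.

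**Figure D4:**
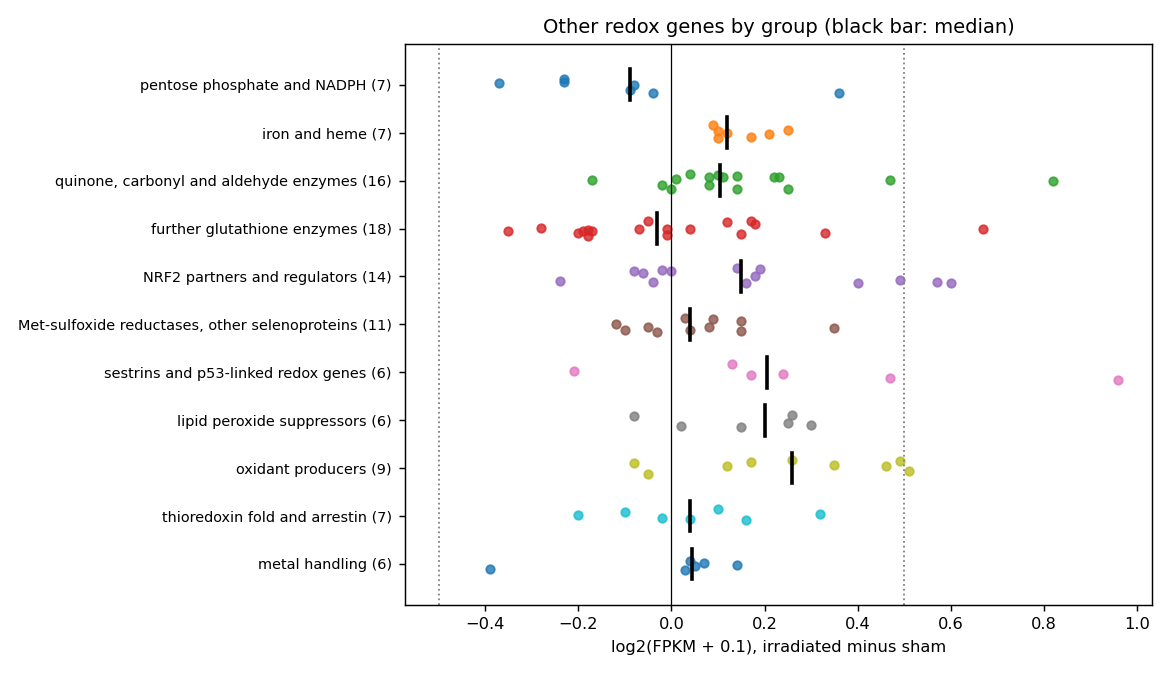
Difference of each of the 107 other redox genes with an FPKM of at least 1, on the log2(FPKM + 0.1) scale, irradiated minus sham, by group, with the number of genes in brackets and the group median as a black bar. Group medians run from -0.09 for pentose phosphate and NADPH genes to 0.26 for oxidant producers, and no gene lies below the dotted line at -0.5.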

How the data were processed

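RNA sequencing of 2 libraries, 1 per condition, was analysed, with samples grouped by their labels. The deposited values, as the authors made them, are log2 of FPKM plus 0.1 with 2 decimals, beside gene coordinates and lengths, and the submitters' processing notes name the build mm10. No aligner or counting tool is named there, and the labels do not give one. The study's paper does not describe this experiment.

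FPKM was recovered by subtracting the 0.1. Fragments were recovered as whole multiples of 1 step per library, and the low genes used for this, 2208 in the sham and 2084 in the irradiated library, all came out whole with a tolerance of 0.12. A count of 0 allows up to 3 fragments, an FPKM of 0.0981 and 0.0857 on a gene of 1 kb. Intervals cover counting error and rounding only. The recovery was tested on simulated data. No p-value was computed.

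The 40 genes, the wider list, the marker lists, and the threshold were chosen with earlier results of these data known. The genes named were all 40, and of the wider list those called whose interval excluded 0. Others were named after their values were seen. Of the 34 genes with a RefSeq start, 28 had it at the start given in the table. SciPy 1.17.1 and numpy 2.4.6 were used in Python 3.11.15, with pandas 2.3.3 for tables and matplotlib 3.10.9 for plots.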

Additional observations from a re-analysis of the deposited data

How the results depend on the processing

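No paired analysis was possible because there were no replicates to pair, and none could be left out. The 40 genes stayed at 0 called higher and 2 called lower with log2(FPKM + 1), with no filter, with an FPKM of at least 5, with both other scalings, and with the ratio of fragments. With a threshold of 1 the count called lower was 0, and with an interval that excludes 0 in place of the threshold the counts were 15 higher and 12 lower. In the wider list, 6 genes called higher became 3 with log2(FPKM + 1), 3 with an FPKM of at least 5, 0 with a threshold of 1, and 42 by the interval, while 0 called lower became 2 without a filter and 15 by the interval. The median difference of the 40 genes ran from -0.035 to -0.01 and that of the wider list from 0.045 to 0.101 over the alternatives. Of the 9 class medians, that of catalase and the glutathione peroxidases alone changed sign, to -0.01 with centring, -0.004 with the other scaling, and -0.075 as a mean. Each of the 40 single differences stayed within its counting interval under the 4 alternatives run on them. Centring lowered all genes by 0.02, and leaving the 100 most abundant genes out of the scaling shifted them by -0.0142. Depth limits Txnrd2 and Gstt1 most, with 284 and 208 fragments in the sham library.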
